A study of Bos taurus with 40 samples.

Results

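The expression of 78 hepatic genes was lower in bulls whose feed had been restricted than in bulls fed freely, and higher than in freely fed bulls after feed was restored. These members were chosen by that pattern, from 12063 genes present in the normalised tables of both periods, of 24616 Ensembl genes counted. The difference between diets was taken in each period as the mean log2(normalised count + 1) of the restricted animals minus that of the control animals. A member had a difference above -1 and up to -0.4 in Period 1, a difference of at least 0.25 in Period 2 and a mean CPM (read count of the gene as a share of all reads on genes, times 1000000) below 1000 over 40 libraries. A further 8 identifiers were left out by name, of which 0 met every cut-off.

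The study examined compensatory growth in purebred Holstein Friesian bulls by RNA-seq of liver, with 10 animals in each of 4 groups. RES animals were held to a gain of 0.6 kg per day for 125 days (Period 1) and were then fed ad libitum for 55 days (Period 2), while ADLIB animals had free access to feed throughout. All groups, controls included, received the same diet of 70% concentrate and 30% grass silage, and liver was taken at day 125 of Period 1 or at day 55 of Period 2. The labels speak of biopsies and the methods of liver taken at slaughter, so animals of the 2 periods were treated as different animals. All animals were male, and the labels give no age. There was no genetic change or drug in any group, and the study had no liver from before the restriction.

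Compensatory growth is the accelerated gain seen when an animal that has been held back by a low feed allowance is given free access to feed again. The liver takes up, converts and redistributes the nutrients absorbed by the gut, and its mass and metabolic activity are known to fall with feed intake and to recover with it. A transcript that is low during restriction may return to the level of continuously fed animals or pass it, and the genes described here are those that were measured on the far side of the control level.

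The deposited tables identify genes by Ensembl identifier only. Of these identifiers, 0 could be matched to a symbol in the reference used here, so the functions of the members, and the markers of hepatocytes or other liver cell types, are not described. In bulk tissue, fewer cells of a type and less RNA per cell cannot be told apart. Libraries held between 8656866 and 15520237 reads on genes, which were between 73.0% and 80.6% of the counted reads. That percentage moved with diet in the same direction as the members. It was 75.8 ± 1.79% (SD, n = 10) in RES and 78.1 ± 1.07% in ADLIB in Period 1, against 77.7 ± 1.55% and 76.6 ± 1.33% in Period 2.

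The members covered a wide range of read counts, and their differences were modest. Their mean level over all animals ran from 1.80 to 723 CPM, which is not divided by gene length, with a median of 14.3 CPM beside 13.3 CPM for all genes in both tables. The Period 1 difference that chose them ran from -0.96 to -0.40 on the log2 scale, with a median of -0.51. The Period 2 difference, which also chose them, ran from 0.25 to 1.32 with a median of 0.33. The second difference was therefore near its cut-off for many members, with 27 of 78 below 0.3, 19 at 0.5 or more and 3 at 1 or more. In Period 1, 35 of the members lay above -0.5 and 11 lay at or under -0.8.

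Genes on either side of each cut-off had nearly the same values. The 2 members nearest the upper Period 1 limit had differences of -0.401 and -0.410, and the nearest genes outside had -0.396 and -0.393. At the lower Period 1 limit the nearest members had -0.963 and -0.919 and the nearest genes outside -1.01 and -1.03. At the Period 2 limit the values were 0.2504 and 0.2506 inside, and 0.247 and 0.243 outside.

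The spread between animals was large against the Period 2 difference. The standard error of a member's difference between diets had a median of 0.20, and 50 of the 78 members had a Period 2 difference under 2 standard errors. For the Period 1 difference this was so in 21 members. The members were also more variable than most genes, since 76 of 78 had a within-group SD above the median of genes in the same range of level. That SD had a median of 0.45 for the members and 0.26 for genes in that range. Other groups chosen by the same cut-offs had medians of 0.49 (lower in RES in both periods), 0.45 (higher in both) and 0.33 (higher and then lower). A gene with a wide spread reaches a fixed cut-off more readily, and both differences above selected the list, so they are given with no test.

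**Figure D1:**
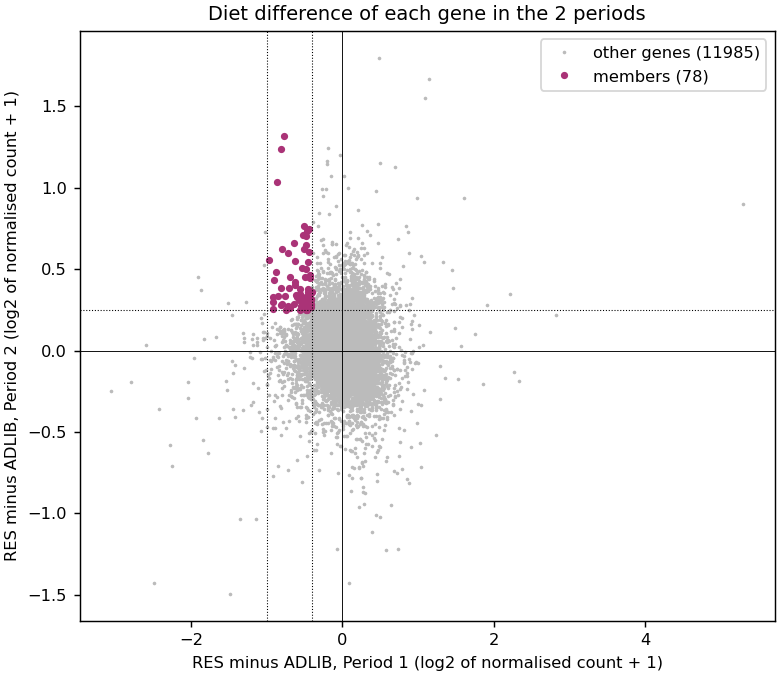
Each point is 1 gene, with the RES minus ADLIB difference of mean log2(normalised count + 1) in Period 1 on the horizontal axis and in Period 2 on the vertical axis, and dotted lines mark the cut-offs. The 78 members lie between -1 and -0.4 in Period 1 and at 0.25 or above in Period 2, with 35 of them above -0.5 in Period 1 and 27 below 0.3 in Period 2.

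The number of members was set against the number that permuted labels gave. In Period 1, 658 genes lay in the range that the rule allows. Of these, 78 (11.9%) were at least 0.25 higher in RES in Period 2 and 67 (10.2%) were at least 0.25 lower. Among all genes in both tables the corresponding numbers were 1045 (8.66%) and 742 (6.15%). The shares were above those of all genes on both sides, and the difference was not tested. With the Period 1 difference held and the diet labels of Period 2 permuted 100000 times, the median number of genes meeting the rule was 53. The central 95% of permutations gave 21 to 133 genes, and 21.4% of permutations gave 78 or more. The number of members was thus within the range of permuted labels. By the same cut-offs, 115 genes were higher and then lower in RES and 78 were higher in both periods.

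**Figure D2:**
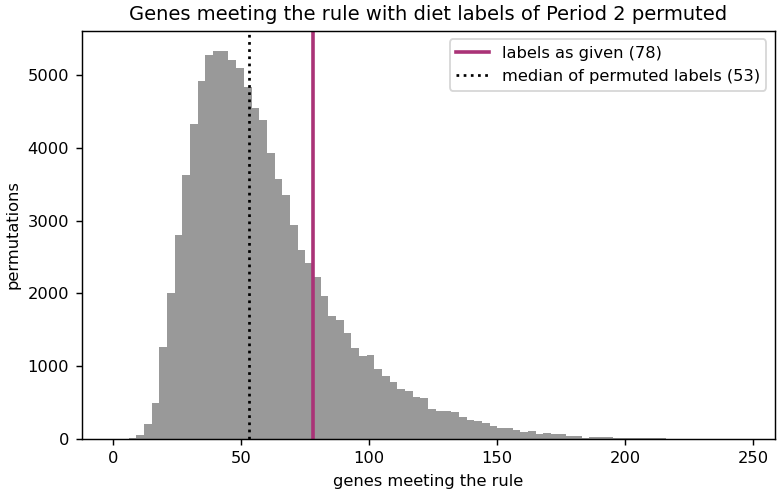
The horizontal axis gives the number of genes meeting the rule when the diet labels of Period 2 were permuted, and the vertical axis the number of the 100000 permutations. The solid line marks 78, the number with the labels as given, and the dotted line marks the median of 53.

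In edgeR's tests of single genes, members passed the threshold in Period 1 and none did so in Period 2. With edgeR's quasi-likelihood test at a Benjamini-Hochberg adjusted p under 0.05 and a log2 difference of at least 0.32, 39 of the 76 members tested were lower in RES in Period 1, beside 5.23% of all genes tested. As the rule used this contrast, the count is a description only. It was 7 when the percentage of reads on genes, which differed between the diets, was added as a covariate, beside 1.16% of all genes. The members' median log2 difference was then -0.59, against -0.56 without it. In Period 2 the edgeR test called 0 of 76 members higher, beside 0% of all genes tested. The study, which used edgeR with moderated tagwise dispersions, did report genes higher in RES in Period 2. Its fit was not repeated here, and the reason for the difference was not tested. The study also reported genes that differed in both periods, most of them with the direction reversed. Among these, COL1A2 and SEMA4B were higher in RES in Period 2. Whether they are members could not be checked, as identifiers were not matched to symbols. At an unadjusted p under 0.05 the quasi-likelihood test had 34 members higher, beside 7.12% of all genes, and the lowest adjusted p of a member was 0.195 by edgeR. DESeq2 called 1 member higher, beside 0.188% of all genes. The Period 2 difference chose the members, so these counts are descriptions too. Of the 78 members, 1 had ranges that did not overlap between the diets in Period 1, beside 0.323% of all genes, and 0 had such ranges in Period 2, beside 0% of all genes.

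The members can also be followed animal by animal. The mean log2(normalised count + 1) over the 78 members lay between 4.05 and 4.30 in ADLIB in Period 1, with a median of 4.15. In RES it lay between 3.36 and 3.79 with a median of 3.61, and so below every ADLIB animal of Period 1. In Period 2 it lay between 3.81 and 4.46 in ADLIB with a median of 4.12, and between 4.28 and 4.87 in RES with a median of 4.55. In the second period the groups overlapped, with the highest ADLIB animal, ADLIB 10, above 2 RES animals. The order of the group medians follows from the way the genes were chosen, which also favours a separation of the animals.

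Counts of members for each animal gave the same order. Each animal of RES in Period 1 had 3 to 16 of the 78 members above the ADLIB mean, with a median of 9.5. In Period 2 each RES animal had 44 to 71 members above the ADLIB mean of that period, with a median of 64. In each RES animal of Period 2 most members were thus above the ADLIB mean. The numbers ran from 44 members in RES 7 and 47 in RES 8 to 68 in RES 4 and 71 in RES 5. The means of these same animals chose the members, so the counts of both periods are descriptions. The members took a mean of 0.332% of the reads on genes in ADLIB and 0.263% in RES in Period 1, and 0.356% and 0.523% in Period 2. The Period 2 medians were 0.360% in ADLIB and 0.449% in RES, where RES 4 (0.931%) and RES 5 (0.739%) were highest.

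**Figure D3:**
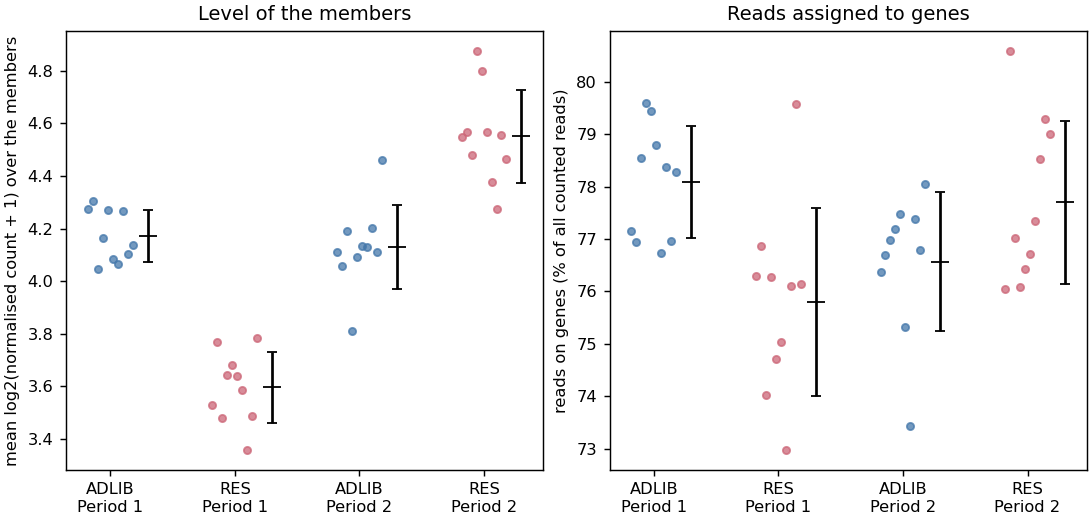
Left, the mean log2(normalised count + 1) over the 78 members in each animal, and right, the percentage of counted reads on genes, with 1 point per animal, 10 animals per group, and a bar for the mean ± SD. RES is lowest in Period 1 and highest in Period 2 in the left plot, and the group means of the right plot lie lower in RES in Period 1 (75.8%) and higher in RES in Period 2 (77.7%).

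The members' levels differed between the periods by more in RES than in ADLIB. By mean normalised count, RES in Period 1 was the lowest of the 4 groups for 75 of 78 members and RES in Period 2 the highest for 70. All 78 were higher in RES in Period 2 than in RES in Period 1, by a median of 0.89 in mean log2 level, beside 0.12 for all genes. By mean normalised count 77 were higher and 1 was lower, and edgeR's fitted log2 differences for that member were 0.13 in Period 1 and -0.09 in Period 2, against the pattern. In ADLIB the members went both ways between the periods, from -0.71 to 0.88 with quartiles of -0.21 and 0.11 and a median of -0.07 (0.08 for all genes), and 48 of 78 were lower in Period 2. These groups are the ones the rule used, so the values are descriptions.

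The periods were also compared as the mean of both diets in Period 2 minus the mean of both in Period 1. This contrast is built from the group means that the rule used, and a gene chosen for a low level in RES in Period 1 and a high one in RES in Period 2 is raised in it by that choice, so its values for the members are descriptions. Of the 75 members with at least 4 reads in every animal, edgeR's quasi-likelihood test called 37 higher, beside 12.2% of all genes tested, and 1 lower, beside 12.7%. The median log2 difference was 0.35 for the members (range -0.48 to 1.24) and 0.01 for all genes. Among the 554 other genes tested of the same Period 1 range, 26.7% were called higher and 1.62% lower, with a median of 0.18. Among the 61 tested genes lower in RES in both periods, 24.6% were called higher. Period is also the age of the animals and their days on the diet, and these cannot be told apart.

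The 4 identifiers at the ends of the list are given in full, as the 2 members with the lowest Period 1 difference and the 2 with the highest Period 2 difference. ENSBTAG00000018220 had the lowest Period 1 difference, -0.96. In Period 1 the ADLIB animals had normalised counts of 4.82 to 18.01 with a median of 11.8, and the RES animals had 1.03 to 17.7 with a median of 5.04. In Period 2 the ADLIB animals had 4.30 to 19.8 with a median of 11.9, and the RES animals had 7.53 to 44.1 with a median of 16.6. The ranges overlapped in both periods, 9 of 10 RES animals were below the ADLIB mean in Period 1, and 9 of 10 were above it in Period 2. The Period 2 difference was 0.56, with a standard error of 0.32.

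ENSBTAG00000007043 had the highest mean CPM of the members, 723, not divided by gene length. Normalised counts in Period 1 spanned 266 to 2211 among ADLIB animals, with a median of 396, and 95.3 to 1558 among RES animals, with a median of 214. In Period 2 they spanned 315 to 1692 among ADLIB animals, with a median of 778, and 387 to 1950 among RES animals, with a median of 805. In Period 1, 7 of 10 RES animals lay below the lowest ADLIB animal, and RES 5 and RES 10 lay far above the others of their group. In Period 2 the RES animals lay 5 above and 5 below the ADLIB mean. The differences were -0.92 in Period 1 and 0.30 in Period 2, with a standard error of 0.47, and the Period 2 difference was 0.16, under the cut-off, without RES 10 of Period 2.

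ENSBTAG00000013103 had the highest Period 2 difference, 1.32, with a standard error of 0.51. Among ADLIB animals of Period 1 the lowest, median and highest normalised counts were 30.1, 67.3 and 259.7, against 19.9, 47.5 and 163 among RES animals. In Period 2 they were 25.8, 66.8 and 152 among ADLIB animals, against 43.3, 145 and 1784 among RES animals. RES animals were widely scattered in Period 2, with 8 of 10 above the ADLIB mean. Without RES 4 of Period 2 the Period 2 difference was 0.95.

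ENSBTAG00000002092 had a mean of 5.33 CPM. Among ADLIB animals of Period 1 the lowest, median and highest normalised counts were 1.32, 4.55 and 6.96, and among RES animals 0.445, 2.06 and 3.96. In Period 2 they were 0.823, 3.20 and 5.64 among ADLIB animals, and 2.64, 6.74 and 35.9 among RES animals. All 10 RES animals were below the ADLIB mean in Period 1 and 9 of 10 were above it in Period 2, though the ranges overlapped. The differences were -0.81 and 1.24, with a standard error of 0.35, and the Period 2 difference was 1.01 without RES 4 of Period 2.

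**Figure D4:**
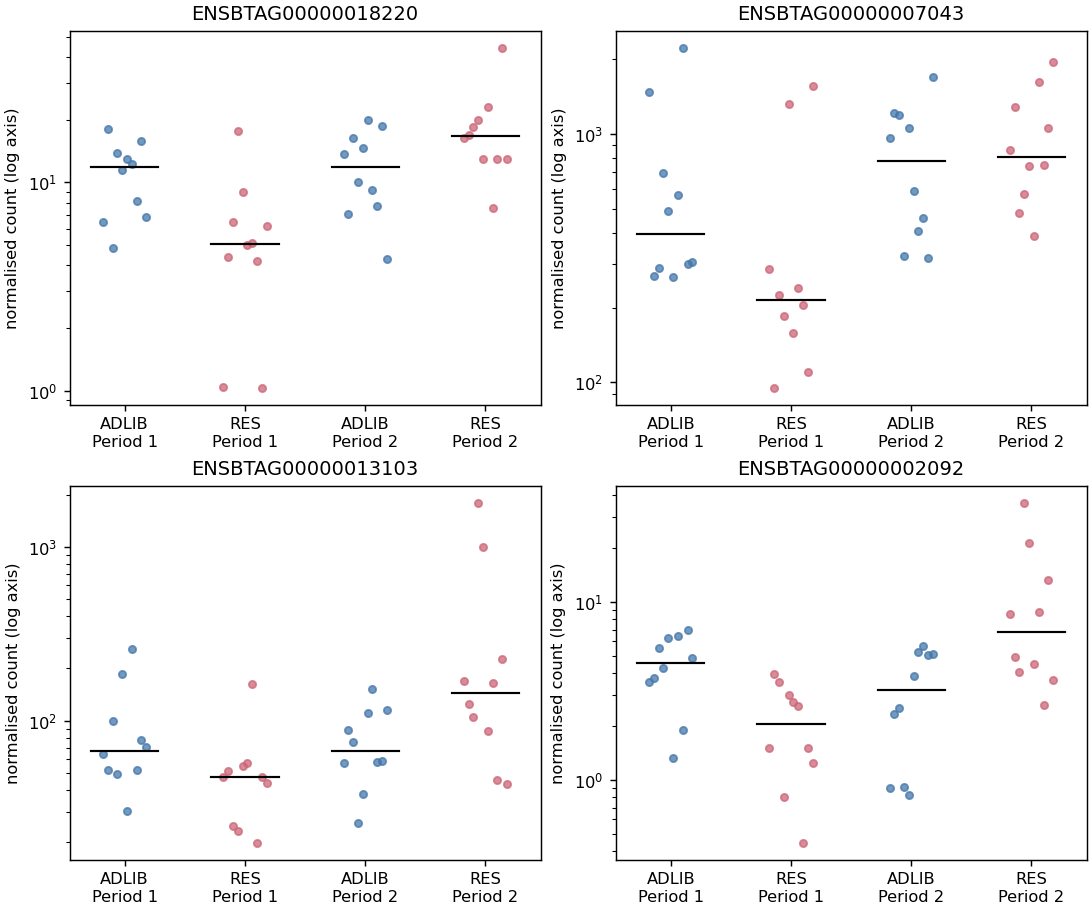
Normalised count on a log axis for the 4 identifiers, with 1 point per animal, 10 animals per group, and a line at the median. The RES group of Period 2 has the widest spread for ENSBTAG00000013103, from 43.3 to 1784, and all diet groups overlap in both periods.

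The members did not vary as 1 block from animal to animal. Covariation was measured on the deviations of the 40 animals from the means of their groups. The diet differences do not enter this quantity, though an animal far from the others of its group enters both. The mean Pearson r over 3003 pairs of members was 0.083, beside 0.00064 over all pairs of genes in both tables. Pairs with r over 0.5 made up 5.86% of member pairs and 1.65% of all pairs. The other genes of the Period 1 range had a mean r of 0.125 and the genes higher and then lower in RES one of 0.135, both above the members, and the genes lower in RES in both periods had one of 0.049, below them. All genes share the library and the depth of an animal, and no test was made of these correlations.

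Average-linkage clustering at a mean r of 0.4 or more gave 3 clusters of at least 4 members, which together held 36 of the 78. The first held 16 members (mean r 0.49) with a median Period 2 difference of 0.30. Its mean log2 level was 3.54 to 4.32 in RES against 3.98 to 4.88 in ADLIB in Period 1. In Period 2 it was 4.00 to 5.01 in RES against 4.02 to 4.83 in ADLIB, so the groups overlapped in both periods. The third held 7 members (mean r 0.49) with a median Period 2 difference of 0.33, and its highest animal in Period 2 was RES 2. The remaining clusters were smaller, and 17 members stood alone.

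The second cluster held most of the genes with the highest Period 2 differences. It had 13 members (mean r 0.62), a median Period 2 difference of 0.70 and 8 of the 10 highest Period 2 differences, ENSBTAG00000013103 and ENSBTAG00000002092 among them. Its mean log2 level in Period 2 had a median of 4.19 in RES (3.12 to 6.06) against 3.66 in ADLIB (2.89 to 4.45). The highest values in RES were 6.06 in RES 4 and 5.59 in RES 5, and 2 of 10 RES animals were below the ADLIB mean. The difference of the cluster mean was 0.70 with all animals, 0.50 without RES 4 and 0.32 without RES 4 and RES 5, the last chosen after seeing the data. The members outside the second cluster numbered 65 and had a Period 2 difference of 0.37, and all 10 RES animals were above the ADLIB mean for them. Each of these genes was chosen for a Period 2 difference of at least 0.25, so these values are descriptions. Most of the highest Period 2 differences were thus those of genes that moved together from animal to animal. RES 4 and RES 5 enter both the Period 2 difference and r, so the 2 measures are not independent. The next RES animal, RES 9, had a cluster mean of 4.49. The r of these genes without RES 4 and RES 5 was not computed.

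**Figure D5:**
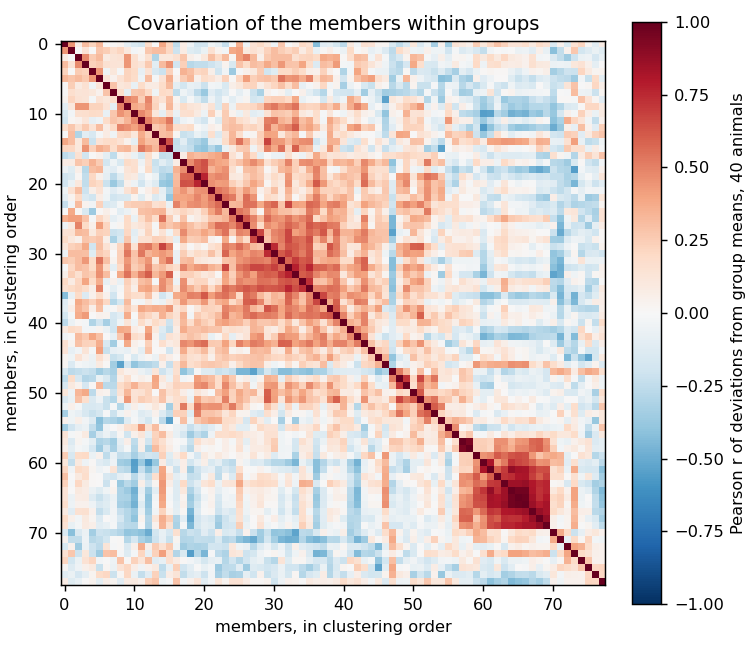
Pearson r between each pair of the 78 members, from the deviations of 40 animals from their group means, with the members in clustering order on both axes. Red blocks on the diagonal are the clusters of covarying members, and most of the area is pale, as the mean r of 0.083 gives.

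The members' levels were set against the percentage of reads on genes within the groups, because the group means of that percentage moved with the pattern. The slope was fitted beside the 4 group means, so it does not use the diet differences. Of 75 members tested, edgeR called 1 with a positive slope, beside 0.101% of all genes tested, and 1 with a negative slope, beside 0.986%. At an unadjusted p under 0.05 the numbers were 9, beside 6.15% of all genes, and 13, beside 8.26%. Without each animal in turn at least 1 member had a called negative slope in all 40 fits. The positive call was absent without ADLIB 4, ADLIB 7 or RES 7 of Period 1, or without ADLIB 7, RES 2, RES 4 or RES 10 of Period 2. There were 4 calls without ADLIB 5 or RES 3 of Period 1 or RES 6 of Period 2. Without RES 9 of Period 1 there were 3 positive and 6 negative, when calls over all genes also rose, to 1.51% and 2.76%. In the second cluster the 11 members tested had slopes between -0.34 and -0.06 on the log2 scale per percentage point, with 0 called, and in the third the 7 members had slopes between 0.05 and 0.10, with 0 called. With the percentage as a covariate the median differences of the members were -0.59 in Period 1 and 0.34 in Period 2. The Period 1 difference was then -1.46 for ENSBTAG00000013103, -1.23 for ENSBTAG00000002092, -1.22 for ENSBTAG00000018220 and -0.81 for ENSBTAG00000007043.

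The number that opens each library's name divided the animals unevenly between the diets, and the labels do not say what it stands for. Within the 3 numbers that held both diets in Period 1, the median difference of the members was -0.56, -0.71 and -0.49. Within the 4 numbers in Period 2 it was 0.36, 0.58, 0.29 and -0.08. The first and the last of these each came from 3 RES animals against 1 ADLIB animal. In the last, that animal was ADLIB 10, which had the highest mean of its group, and there 48 of 78 members were lower in RES. The second, 0.58, came from 2 RES animals against 5 ADLIB animals. Those RES animals were RES 4 and RES 5, which had the highest means of their group (4.87 and 4.80). The part of the library-name number in the differences was not tested beyond a fit with it as a block, which gave medians of -0.53 and 0.34.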

How the data were processed

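Hepatic RNA of 40 bulls was sequenced as single-end reads. Per the labels, CASAVA 1.4, TopHat, HTSeq and edgeR were named in the submitters' processing notes, with genome build UMD3.1. The authors deposited read counts per Ensembl gene without normalisation for each animal. The authors also deposited normalised values (a signal scaled per animal), which were each gene's read count multiplied by 1 constant for that animal, for genes above a level filter in the period (12150 in Period 1 and 12305 in Period 2). Groups came from the labels' diet and period.

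The members and lists were chosen with earlier results of these data known. The lists of named liver genes and cell type markers could not be applied, since 0 identifiers matched a symbol. The 4 identifiers printed were the 2 members with the lowest Period 1 difference and the 2 with the highest Period 2 difference. Differences used a pseudocount of 1. Genes were kept where no animal had fewer than 4 reads, and their read counts were normalised by TMM and fitted in edgeR 4.0.16 (R 4.3.3), with robust quasi-likelihood F tests. Benjamini-Hochberg adjustment ran over all genes tested, at 0.05, and the diet contrasts also required a log2 difference of at least 0.32. Animals were the replicates. DESeq2 1.42.0 was an alternative, as were other pseudocounts, filters, scalings, a covariate, blocks and fits without each animal. Rows of 92 spike-in controls held 0 reads. On simulated counts with 200 changed genes among the 11868 tested, the test of the averaged period contrast called 189 with 12 false calls and that of the slope 173 with 11. Of 200 each, 159 were called with 5 false calls among 12047 genes in Period 1 and 166 with 3 among 12202 in Period 2. Every change planted in these diet contrasts was larger than the members' median Period 2 difference of 0.33. Recovery of changes of that size was not tested.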

Additional observations from a re-analysis of the deposited data

Results flagged for a closer look

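The mean log2 level over the members differed between the periods in its direction, since all RES animals of Period 1 lay below the ADLIB mean and all RES animals of Period 2 above it. The Period 2 difference exceeded the Period 1 difference by 1.00 on the log2 scale. This follows from the choice of the members and was not tested.

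Of 44 sets of 10 animals examined, 4 held an animal apart from the rest. Chance gives about 1 in 20 for normally distributed values. That share need not hold for untransformed normalised counts of identifiers chosen for extreme differences. For ENSBTAG00000018220 the normalised count was 17.7 in RES 4 of Period 1, with the next at 9.02, and 44.1 in RES 9 of Period 2, with the next at 23.1. For ENSBTAG00000013103 it was 163 in RES 7 of Period 1, with the next at 57.1. The library of ADLIB 5 of Period 2 held 15520237 reads on genes, with the next at 12133068.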

How the results depend on the processing

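The number of members depended on the processing more than its leave-one-out values did. It was 145 with a pseudocount of 0.1 (74 shared with the list), 155 with a covariate for the percentage of reads on genes (37 shared) and 143 with edgeR's fitted fold changes (62 shared), and lay between 56 and 104 under the other scalings, pseudocounts, filters and summaries. Without any 1 animal it lay between 68 and 97, and 16 of 78 members met every cut-off in all such runs, while 77 kept a Period 1 difference below 0 and 77 a Period 2 difference above 0. Members called in the averaged period contrast numbered 28 to 39 without each animal, those lower in Period 1 numbered 33 to 44, and those higher in Period 2 numbered 0 in each such fit. Slope calls numbered 1 to 9 without each animal (9 without RES 9 of Period 1). When scaled by total reads alone they numbered 8 of 75 members tested, all negative. Beside them, 1562 of all 11868 genes tested were called negative and 1 positive. With the percentage as a covariate 7 members were called lower in Period 1, and DESeq2 called 1 higher in Period 2. The cause of these shifts was not tested. Scaling by total reads moved the median of all genes by over 0.1 in the averaged contrast, from 0.01 to 0.12, and in Period 1 from 0.02 to 0.11. There, 48 members were called higher between periods and 27 lower in Period 1. Over all genes tested, calls higher and lower went from 1444 and 1512 to 3106 and 705 in the averaged contrast and from 613 and 630 to 1184 and 379 in Period 1. With CPM in place of TMM-scaled values all 78 members kept the direction of both differences, and with edgeR's fitted fold changes or differences of medians 77 kept each.

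The study describes blocking of the bulls by weight, age, sire and gain before the trial, but does not tie blocks to animal numbers. Same-numbered RES and ADLIB animals shared a number, and whether they were paired was not known. Their deviations had a mean r of 0.097 in Period 1 and -0.0015 in Period 2, with 4 of 10 pairs over 0.1 in each. In Period 1, 3 RES and 4 ADLIB animals correlated best with their own number, and 1 and 1 did in Period 2. The numbers expected without pairing were not computed. With a replicate block the fitted fold changes gave 147 members (70 shared). The slope was called negative in 1 of 75 members tested, beside 7 of 11868 genes. In the averaged contrast 36 members were called higher and 1 lower, beside 1573 and 1638 of 11868 genes. In Period 1, 44 of 76 were called lower, beside 807 of 12047 genes. In Period 2, 0 of 76 were called higher, beside 0 of 12202 genes.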
